A study of Mus musculus with 4 samples.

Results

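The accessible regions described here lie at 10 C-type lectin receptor genes of mouse chromosome 6: the CD94-NKG2 genes Klrd1, Klrc1, Klrc2 and Klrc3 with the related Klre1, the NKR-P1 genes Klrb1a, Klrb1b, Klrb1c and Klrb1f, and Klrg1. A region belonged to a gene when that gene was the nearest protein-coding gene of the GRCm38 annotation, by distance to the gene span. This gave 99 of the 91266 accessible regions of the series. The cells were splenic natural killer (NK) cells of wild-type C57BL/6 mice, cultured for 72 hours with the cytokine interleukin-15 (IL-15) at a low dose (2 samples) or a high dose (2 samples). Neither concentration is given in the sources used here. The assay was ATAC-seq, which marks open chromatin by where a transposase can insert adapters, with about 75000 cells as input per biological replicate.

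The deposited tables hold positions and no values per sample: 1 list of all regions, and 2 lists, up and down, of those the authors called different between the doses. The spread between replicates therefore cannot be measured, depth is unknown, and no test of the doses was made. Which dose the names up and down refer to is not given in the sources used here, so both are used as deposited. Regions are not replicates, and the shares below are descriptions. Their 95% Wilson intervals cover counting error only.

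NK cells read the state of other cells through paired activating and inhibitory receptors, many of them encoded side by side in the NK gene complex. CD94 (Klrd1) pairs with NKG2A (Klrc1), which is inhibitory, or with NKG2C (Klrc2) or NKG2E (Klrc3), which signal through the adaptor DAP12, and these pairs bind the nonclassical class I molecule Qa-1. NKR-P1 receptors recognise other lectins of the Clec2 family, while KLRG1 is an inhibitory receptor for cadherins that marks mature NK cells.

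The cell label was checked against regions at marker genes. Leaving out Klrb1c, which is itself one of the 10 genes, a region overlapped the gene at 7 of 7 NK markers, among them Ncr1, Eomes, Tbx21 and Prf1, and one lay over the gene start at each of the 6 with an annotated start window. Start windows held a region in 1 of 5 T cell markers (Cd5), 0 of 2 B cell markers and 0 of 2 myeloid markers. The T cell genes Cd3e, Cd3d and Cd3g each had 1 region within the gene, while Cd4, Cd8a, Ms4a1, Cd79a, Lyz2 and Mpo had 0 regions assigned.

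Of the 99 regions, 0 were in the up list and 4 were in the down list (4.04%, interval 1.58 to 9.93%). Over all regions, 4.21% were up, 1.40% were down and 5.61% were in either list. All 4 down regions belonged to NKR-P1 genes, 2 to Klrb1a and 2 to Klrb1c. The 47 NKR-P1 regions thus had 8.51% in the down list (3.36 to 19.9%). Down regions without up regions were not seen at these receptor genes alone: the 7 NK marker genes used for the label check had 0 up and 5 down among 87 regions (5.75%), 4 of the 5 at Ncr1, an activating receptor gene with 11 regions, and 1 at Il2rb. The CD94-NKG2 genes had 0 of 35 regions in either list, which allows a share of up to 8.57%, and Klrg1 had 0 of 17, which allows up to 17.6%. For a count of 0, such a limit is 3 counts of the total in place of the Wilson interval, whose upper ends were 9.89% and 18.4%. The 0 up regions among all 99 allow a share of up to 3.03%, below the 4.21% of all regions, while the limits of the CD94-NKG2 genes and Klrg1 lie above the shares over all regions. Regions of 1 gene are neighbours and not independent, and neither the families nor the members and the other regions were compared by a test. A region overlapped the gene in 42 of the 99 cases (42.4%), against 61.1% of all regions.

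**Figure D1:**
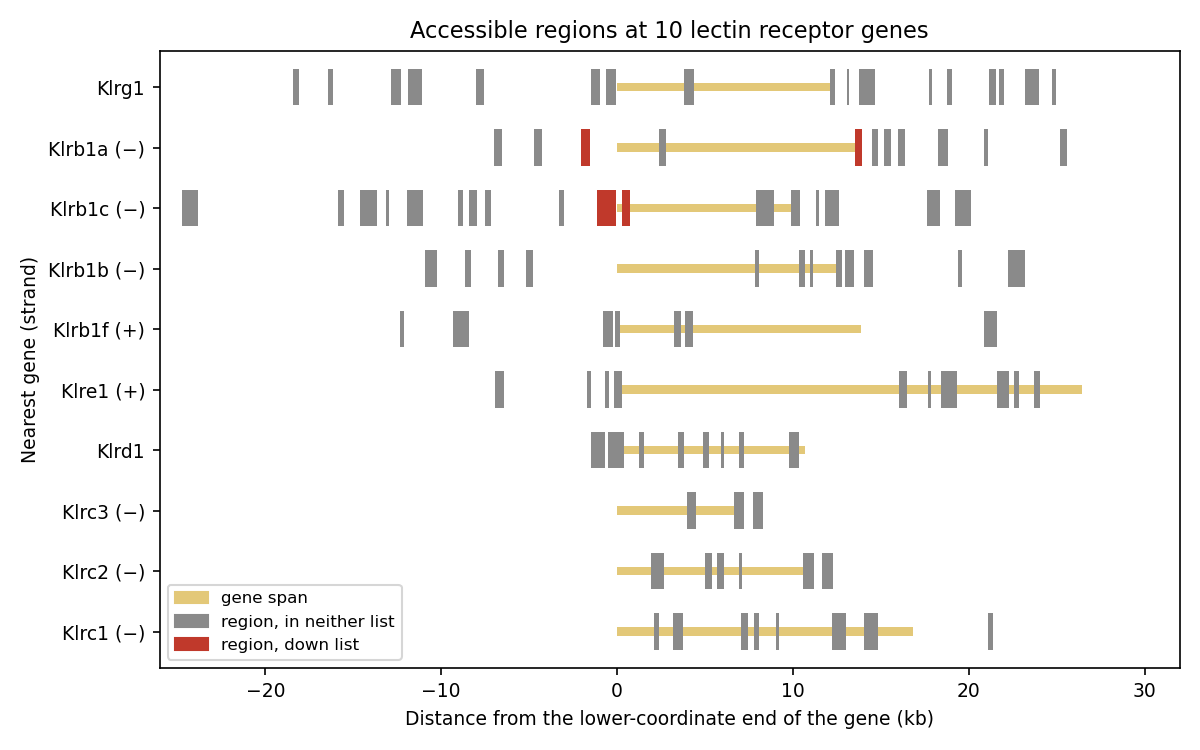
Accessible regions (vertical bars, drawn to their width) at each gene, by distance in kb from the lower-coordinate end of the gene; the horizontal bar is the gene span and the sign after a name its strand where the annotation used gives one. The 4 regions of the down list lie at the ends of Klrb1a and Klrb1c.

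Klrb1a encodes NKR-P1A, and Klrb1c encodes NKR-P1C, the NK1.1 antigen by which NK cells of this strain are commonly identified. Both genes are transcribed toward lower coordinates. Klrb1a (chr6:128609227-128622934) had 11 regions, 2 of them overlapping the gene. One down region, chr6:128622767-128623175 (409 bp), lay over the annotated start and covered 241 of the 250 bases before it. The other, chr6:128607202-128607686 (485 bp), lay 1541 bp beyond the 3′ end of the gene. The down regions were thus at opposite ends of Klrb1a, 15080 bp apart, with 1 unlisted region of 434 bp between them inside the gene.

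At Klrb1c (chr6:128778485-128788641), 17 regions were assigned and 3 overlapped the gene. Its down regions were neighbours at the 3′ end, separated by 298 bp. The wider, chr6:128777331-128778442, was 1112 bp long and ended 43 bp beyond the gene, and the narrower, chr6:128778741-128779200, was 460 bp long and lay inside it. The wider one was also the widest of the 99 regions. The region over the Klrb1c start, chr6:128788358-128788869 (512 bp), was in neither list. Of the pair, then, Klrb1a had a down region over its start and Klrb1c did not, while both had one within 1541 bp of the 3′ end.

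The start sequences of these genes are shown because they are close copies whose regions the authors called differently. Each is the 250 bases before the annotated start, 5′ to 3′ on the minus strand (RefSeq, GRCm38.p6), and capitals mark the RUNX motif TGTGGT on either strand. Klrb1a is at chr6:128622935-128623184 and Klrb1c at chr6:128788642-128788891.
Klrb1a: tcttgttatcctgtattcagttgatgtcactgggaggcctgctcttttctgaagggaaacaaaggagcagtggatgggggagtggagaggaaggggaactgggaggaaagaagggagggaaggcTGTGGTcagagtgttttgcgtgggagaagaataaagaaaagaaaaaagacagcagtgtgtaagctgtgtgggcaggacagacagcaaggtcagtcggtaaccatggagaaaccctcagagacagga
Klrb1c: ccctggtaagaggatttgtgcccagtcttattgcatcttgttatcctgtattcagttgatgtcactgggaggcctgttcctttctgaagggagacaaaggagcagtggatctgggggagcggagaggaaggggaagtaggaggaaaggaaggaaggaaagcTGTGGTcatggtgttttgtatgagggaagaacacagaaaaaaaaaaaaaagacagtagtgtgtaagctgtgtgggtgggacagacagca

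Over the 300-base start windows (250 bases before to 50 after the start), 236 of 265 aligned columns (89.1%) were identical between Klrb1a and Klrb1c, with 41 bases as the longest run shared without a difference. The motif fell at the same aligned place in both, 126 bases before the start in Klrb1a and 89 before it in Klrb1c. The sources used here do not say how reads that match both copies were handled, so calls at these genes are uncertain to that extent.

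Klrb1b and Klrb1f had no listed region. Klrb1b, an inhibitory receptor that binds the Clec2d product, had 12 regions (7 by the nearest gene of any biotype) with widths from 157 to 963 bp. One of 310 bp lay over its start, chr6:128826178-128826487, and the nearest to its 3′ end was 4796 bp away, against 43 bp in Klrb1c. Klrb1f had 7 regions, including one of 272 bp over the start at chr6:129045748-129046019, and none closer than 7007 bp to the 3′ end. The Klrb1b and Klrb1f start windows shared no run over 22 bases. The further NKR-P1 gene Klrb1, looked at after its values were seen, had 6 regions, 0 of them listed.

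In the 465.3 kb from the first Klrb1a region to the last Klrb1f region (chr6:128602213-129067466), 85 regions were called, of which 38 belonged to interspersed genes such as those of the Clec2 family. Of the 85, 5 were down and 1 was up. The down region that was not at an NKR-P1 gene was in Clec2g, and the up region was nearest to Clec2i. The region nearest to Klrb1a in the up list, chr6:128594732-128595081, lay 14146 bp from the gene on the side of its 3′ end and was assigned to A2ml1.

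**Figure D2:**
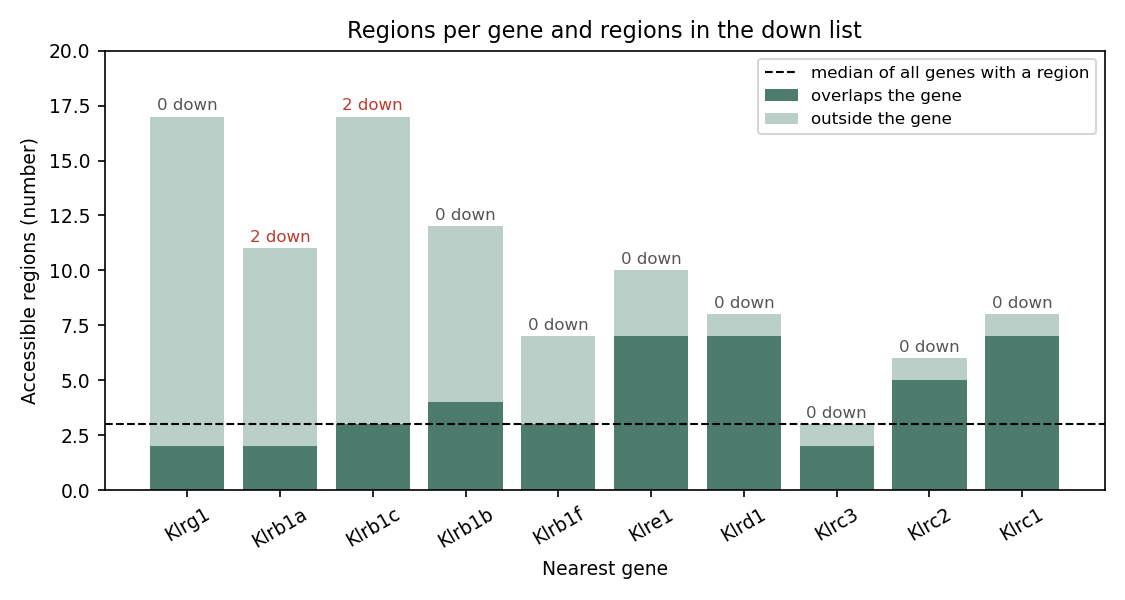
Number of accessible regions assigned to each gene, split into those that overlap the gene and those outside it; the text over each bar gives the number in the down list and the dashed line the median of 3 regions per gene. Klrg1 and Klrb1c reach 17 regions by the nearest protein-coding gene (8 and 15 by the nearest gene of any biotype), and 9 of the 10 genes lie above the line.

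The CD94-NKG2 block was compact. From Klre1 to Klrc1, 42 regions lay in 135 kb (chr6:129552437-129687407), and 0 of them were in either list, the 7 regions of Klrk1 included. The nearest listed region was an up region of 207 bp at Klra17, 136365 bp from Klrc1. Of the 35 regions assigned to these 5 genes, 28 (80%) overlapped a gene, against 12 of 47 (25.5%) for the NKR-P1 genes.

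Klrd1 (chr6:129588092-129598775), the shared CD94 chain, had 8 regions, 7 of which overlapped the gene. That was 6.55 regions per 10 kb of gene, the highest of the 10 genes, against a median of 0.859 over all genes with a region. A region of 907 bp, chr6:129587594-129588500, covered its lower-coordinate end, and one of 800 bp lay 692 bp before it. Klrc1, the inhibitory partner, had 8 regions (4 of them at least 300 bp wide) and 4.16 per 10 kb of gene. Its regions of 826 bp (chr6:129678219-129679044) and 836 bp (chr6:129680039-129680874) both lay inside the annotated gene, and the first covered the annotated start site while reaching only 71 of the 250 bases before it. Klre1, whose product pairs with KLRI1 or KLRI2, had 10 regions (6 of them at least 300 bp wide), and the widest, of 922 bp (chr6:129577765-129578686), covered both of its annotated start windows in full.

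Klrc2 and Klrc3, the genes of the activating partners, had 6 and 3 regions. Their starts were near-copies of each other and carried regions in the same layout, which is why both sequences are shown. They are again the 250 bases before the start on the minus strand, at chr6:129660557-129660806 for Klrc2 and chr6:129643289-129643538 for Klrc3, with the reverse complement of the RUNX motif in capitals.
Klrc2: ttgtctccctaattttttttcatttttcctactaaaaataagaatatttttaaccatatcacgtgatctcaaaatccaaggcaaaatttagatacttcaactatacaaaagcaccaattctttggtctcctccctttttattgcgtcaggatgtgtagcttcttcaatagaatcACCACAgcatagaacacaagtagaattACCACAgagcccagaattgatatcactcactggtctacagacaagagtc
Klrc3: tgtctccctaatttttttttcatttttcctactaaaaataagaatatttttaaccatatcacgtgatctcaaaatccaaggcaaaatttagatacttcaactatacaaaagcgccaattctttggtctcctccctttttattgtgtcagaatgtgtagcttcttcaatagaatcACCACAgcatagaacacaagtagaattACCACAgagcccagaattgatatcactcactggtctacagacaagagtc

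The start windows of Klrc2 and Klrc3 were identical in 296 of 300 aligned columns (98.7%), with a shared run of 150 bases. At Klrc2 a region of 594 bp ran from 226 bases before to 367 after the start, followed upstream by one of 601 bp from 1299 to 699 bases before it. At Klrc3 the corresponding regions were 570 bp long, from 209 before to 360 after the start, and 604 bp long, from 1293 to 690 before it. The edges of these regions thus differed by at most 17 bases between the genes, measured from each start. Reads from such stretches can match both genes, and how they were assigned is not given in the sources used here.

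**Figure D3:**
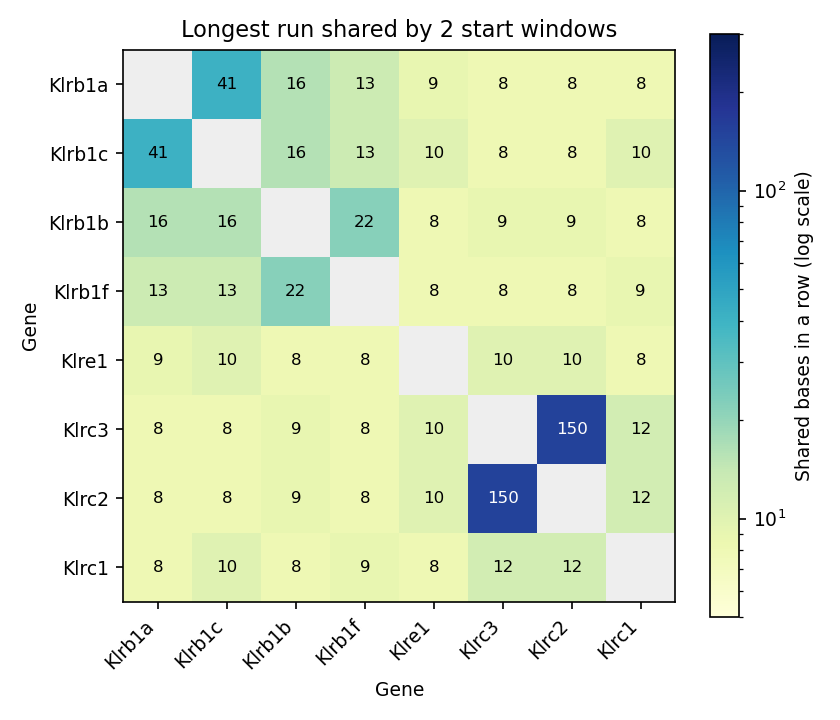
Longest run of identical bases shared by the 300-base start windows of each pair of the 8 genes with a window in the annotation; colour is on a log scale and gives the same values as the printed numbers. Klrc2 with Klrc3 (150 bases) and Klrb1a with Klrb1c (41 bases) stand above the other pairs, whose longest run is 22 bases.

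A start window was annotated for 8 of the 10 genes, all but Klrd1 and Klrg1, and a region lay over it in all 8, against 43.4% of the 27025 genes with a window and 55.8% of the 17492 protein-coding ones. Regions over a start were seldom in the down list: 38 of 10661 (0.356%), of which the Klrb1a region is one. Among the 1275 down regions, those 38 are 2.98%. At the members, 1 of the 8 start regions was down.

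Motifs of factors known in NK cells were counted in these windows on both strands. The RUNX motif TGTGGT was found in 6 of 8 windows, 8 times in all, against 16.9% of windows of the same length, 1 for each of the 27025 genes, and 15.1% of those of protein-coding genes. The windows without it were those of Klrb1b and Klrb1f. Because Klrc2 repeats Klrc3 and Klrb1a repeats Klrb1c at aligned places, the 6 windows are not independent. The STAT motif TTCNNNGAA occurred in 1 window (8.47% of all windows), that of Klrb1f, where it spans the start from 5 bases before to 3 after. The AP-1 motif TGANTCA occurred in 2 (7.93%), Klrc2 and Klrc3, 1 base after the start. The T-box motif TCACACC (3.96% of all windows) and the ETS motif CCGGAA (15.2%) were found in 0 of 8. A match of letters is not evidence of binding, and the absence of a match says only that these letters are not in the window.

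Klrg1 lies apart, at chr6:122270596-122282833, and had 17 regions, 15 of them outside the gene and up to 18104 bp from it. Its count depended on the rule of assignment: it was 8 where the nearest gene of any biotype was taken, against 15 for Klrb1c, and 10 with regions under 300 bp left out. The regions flanking its ends were chr6:122269966-122270556 (591 bp, 40 bp from the lower end) and chr6:122282735-122283005 (271 bp, over the upper end). Its widest region, of 888 bp, lay 1524 bp beyond the upper end. The nearest listed region was a down region of 204 bp, chr6:122301339-122301542, which lay 18506 bp from Klrg1 and was assigned to M6pr.

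Median widths were 437 bp for the NKR-P1 genes, 412 bp for the CD94-NKG2 genes and 374 bp for Klrg1. The 99 regions had a median width of 431 bp (151 to 1112 bp), against 400 bp over all regions. Medians per gene ran from 329.5 bp in Klrd1 to 570 bp in Klrc3. The 4 down regions measured 409, 460, 485 and 1112 bp. Their median was 472.5 bp, against 537 bp for the whole down list, and 54 of the 99 regions fell in the same range of widths. Regions under 300 bp were 26.3% of the 99 and 35.4% of all regions.

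**Figure D4:**
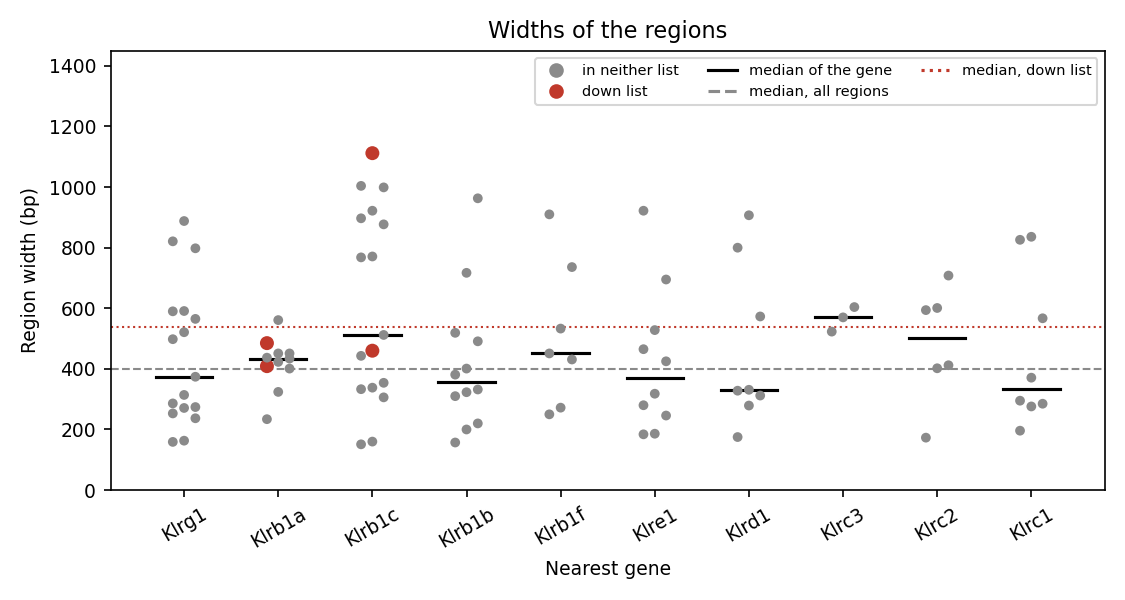
Width in bp of each accessible region by gene, with a short line at the gene's median, a dashed line at the median of all regions (400 bp) and a dotted line at the median of the down list (537 bp). The 4 down regions (red) lie among the unlisted ones, apart from the 1112 bp region of Klrb1c.

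The members had more regions than most genes. The median was 9 per gene, against 3 over the 16387 genes with a region (interquartile range 2 to 6), and the median gap between regions of the same gene was 1216 bp, against 5516 bp between regions of the same gene over all genes. The greater number of regions bears on any count per gene. At least 1 down region was assigned to 2 of the 10 genes and to 5.39% of all genes with a region. Klrb1a and Klrb1c were among the 217 genes (1.32%) with 2 or more down regions, and among the 152 of these with 0 up regions.

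Partners and ligands of the receptors were counted in the same way. The lectin genes Klrk1, which lies within the CD94-NKG2 block, and Klri1, Klri2 and Klrh1 had 0 of 25 regions listed. The 7 regions of Klrk1 among them were already counted in the block above. The 11 Ly49 genes, which encode class I receptors, had 4 of 79 regions down (5.06%) and 1 up. The down regions were 2 at Klra8, 1 at Klra3 and 1 at Klra10, all outside the genes.

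Of 10 ligand genes, 9 had a region and 4 of these a listed one, against 20.1% of all genes with a region. That share of genes depends on the number of regions per gene, and it was not tested. By region, the 54 were 3.70% up and 3.70% down, each resting on 2 regions, against 4.21% and 1.4% of all regions. Clec2d, whose product is bound by NKR-P1B, had 1 of 11 regions down, 180 bp long within the gene. Clec2g had 1 of 9 down, also within the gene, and Clec2i, whose product is bound by NKR-P1F, had 1 of 5 up, 3816 bp outside it. Cdh1, which encodes the KLRG1 ligand E-cadherin, had 1 of 9 up. H2-T23, which encodes Qa-1, had 0 of 4 listed, and Cdh2 had no region. Among 9 adaptor, phosphatase and kinase genes, 87 regions were assigned, of which 1 was up (Ptpn11) and 2 were down. Tyrobp, the gene of DAP12, had 1 of 8 regions down at 10904 bp from the gene, and Syk had 1 of 25 down within the gene.

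**Figure D5:**
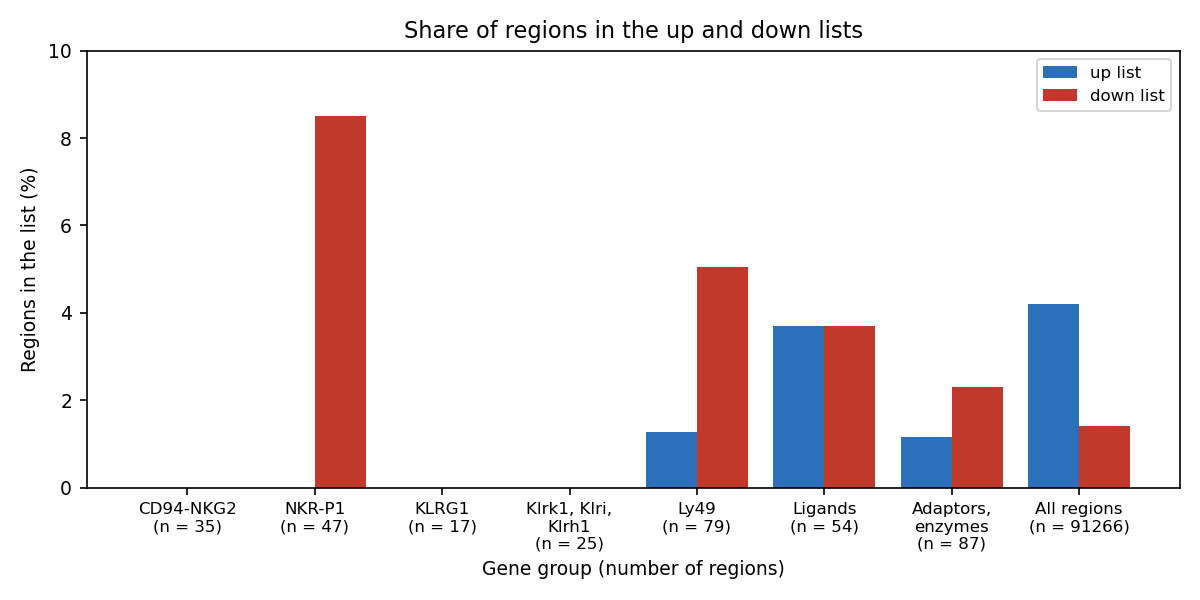
Percent of the regions of each gene group in the authors' up list and down list, with the number of regions under each group. The NKR-P1 genes reach 8.51% in the down list with 0 up, the CD94-NKG2 genes and Klrg1 are at 0 in both, and all regions are at 4.21% up and 1.40% down.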

How the data were processed

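ATAC-seq had been performed on 4 samples, grouped by the dose in their titles. The 3 deposited tables give positions only: chromosome, start, end and width in bp of each region, and the authors' up and down lists, with 0 columns of values per sample. The submitters' processing notes name mm10, BWA, ArchR, MACS2 and HOMER 4.11.1, without roles. Whether peaks were called on pooled samples, the test and its threshold are not given in the sources used here.

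Starts of the full list were raised by 1, after which every listed region matched a region of the full list exactly. Genes (21900 protein-coding) and start windows came from RefSeq tables of GRCm38.p6, which corresponds to mm10. Exons and UTRs were not annotated. Where a member had several start windows, the one with most bases in a region was used, and the first listed for all other genes. Start windows were aligned with Biopython 1.88 with free end gaps (match 1, mismatch -1, gap -2). Python 3.11.15, pandas 2.3.3 and scipy 1.17.1 were used, and the steps were tested on simulated data. The planned comparison of doses on counts could not be made. The members and lists were chosen with earlier results of these data known. All 10 genes are named, with every listed region, the start regions and the widest or most distant regions, and partner genes where a region was listed. No sequence for Klrd1 or Klrg1 was used.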

Additional observations from a re-analysis of the deposited data

How the results depend on the processing

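No paired analysis was possible because only positions were deposited, without a value for any sample. For the same reason the planned test of the doses, its other normalization, its filters and leaving out a replicate were not run, and motifs were counted in start windows only. For 6 counts or medians, 40 alternatives were run, and 35 stayed within 1.5 times the count, or within 1 SD of the widths. The other 5 follow from the rule that ties regions to genes. Of the 99 regions, 42 overlapped a gene, and 149 regions lay within 50 kb of one of the 10 whichever gene was nearest. Among the overlapping ones 2 were down, 1 each at Klrb1a and Klrb1c. Within 50 kb, 1 region was up and 4 genes had a listed region, because Klrb1b shares those of Klrb1c and Klrg1 gains that of M6pr. By gene, the nearest gene of any biotype lowered Klrg1 from 17 to 8 regions and Klrb1b from 12 to 7, and a minimum of 300 bp lowered Klrg1 to 10, Klre1 from 10 to 6 and Klrc1 from 8 to 4. Adding Klrb1, a choice made after seeing the data, gave 105 regions. Without values per sample or depth, no call could be retested.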
